A study of Cricetulus griseus with 6 samples.

Results

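The BCL2 family decides whether the outer mitochondrial membrane stays intact. Of 10 family genes looked for by symbol among 27873 entries (pro-survival, effector and BH3-only genes, listed by name, with no threshold on their values), 9 were found and 8 were expressed strongly enough to be tested. *Bcl2l2* was not matched by symbol and was not analysed here. The cells were Chinese hamster ovary (CHO) cells that stably express T-cadherin from a *Cdh13* cDNA (CHO-T cells), in both conditions. Cells transfected with a negative control siRNA or with an siRNA against *Xbp1* were harvested at 48 h, and each condition has 3 libraries. *Xbp1* encodes the transcription factor downstream of IRE1α, a sensor of endoplasmic reticulum (ER) stress, and the study asked which pathways change when it is silenced. The libraries are numbered within each condition, and nothing in the labels says that they came from separate cultures, so the p-values measure the spread between these libraries.

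Pro-survival proteins such as MCL1 and BCL-XL hold the effectors BAX and BAK in check. When BH3-only proteins such as BIM, BID and BAD occupy the pro-survival proteins or act on the effectors directly, BAX and BAK form pores, cytochrome c escapes, and APAF1 and caspases are set in motion. The same proteins also sit on the ER membrane, where BAX and BAK bind IRE1α and BCL2 binds the IP3 receptor. All values below are mRNA levels, not protein levels, and one value per gene does not separate splice forms with opposite roles, such as those of *Bcl2l1*. In bulk RNA a lower value in every cell and a loss from some of the cells cannot be told apart.

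The level of each gene is given in FPKM, which scales the fragments of a gene to its exon length and to the mapped reads of the library, so that levels of different genes can be compared per length. *Xbp1* itself had 26.0, 26.2 and 28.4 FPKM with control siRNA and 2.18, 2.11 and 1.39 FPKM with *Xbp1* siRNA, and limma gave a log2 change of −3.78 ± 0.16 (standard error) with an adjusted p of 5.61e-06. As a check of the cell type, the mesenchymal gene *Vim* lay between 296 and 389 FPKM, while the epithelial keratin *Krt18*, the granulosa receptor *Fshr* and the leukocyte gene *Ptprc* were listed at 0 in all 6 libraries, and the granulosa hormone *Amh* lay between 2.07 and 3.55 FPKM. The endothelial gene *Pecam1* was at most 0.268 FPKM, and *Krt8*, *Foxl2* and *Cyp19a1* were not matched by symbol. From the steps on which weak values fall, the depth of the libraries relative to control replicate 1 was 94.0% to 116%.

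After *Xbp1* silencing 5 family members changed, each by less than 1 on the log2 scale. Of the 3 pro-survival genes found, 2 fell, 1 of 2 tested effectors rose, and of the 3 BH3-only genes 1 fell and 1 rose. *Mcl1* and *Bcl2l1*, which restrain the effectors, and *Bcl2l11*, which encodes the BH3-only protein BIM, fell to 68.7%, 73.3% and 69.3% of the control mean. *Bak1*, which encodes the effector BAK, and *Bad*, which encodes a BH3-only antagonist of BCL-XL, rose to 127% and 132%. *Bcl2*, *Bax* and *Bid* did not pass the test. A gene passed when its limma p-value on log2(FPKM + 0.1), adjusted over all 14361 genes tested, was under 0.05.

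Thus 2 of 8 genes passed as higher and 3 of 8 as lower. Over all genes tested, 20.2% passed as higher and 20.2% as lower, 40.4% in all. With so broad a response, and with 8 members, the count of 5 is not in itself a result about the family. No member reached the fold limit of 1 on the log2 scale that the study's methods add to the adjusted p: by limma, 0 of 8 did so in either direction, although 5 had an unadjusted p under 0.05, as did 7017 of all 14361 genes. Of all genes, 2.69% were past both limits as higher and 2.5% as lower. The median log2 fold change of the 8 members was −0.06, against 0.01 for all genes tested. In size, the change of *Mcl1* was exceeded by 24.7% of all genes, and that of *Bak1* by 41.0%.

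**Figure D1:**
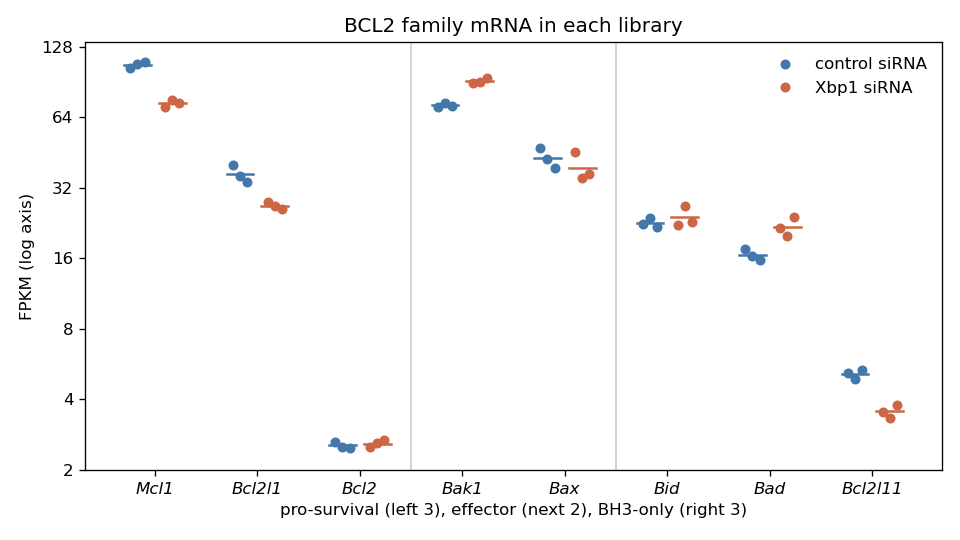
FPKM (log axis) of 8 family members in each of 3 libraries with control siRNA (blue) and 3 with *Xbp1* siRNA (orange); dots are libraries and lines are means. The dots of the 2 conditions are separate for *Mcl1*, *Bcl2l1*, *Bak1*, *Bad* and *Bcl2l11* and overlap for *Bcl2*, *Bax* and *Bid*.

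Among the pro-survival genes, *Mcl1* was the most abundant. MCL1 is a short-lived protein that binds BAK and BIM. *Mcl1* had 103.9, 107.8 and 110.4 FPKM with control siRNA and 71.1, 76.2 and 73.9 FPKM with *Xbp1* siRNA. Every silenced library was below every control library. The means were 107 ± 3.29 FPKM (SD, n = 3) and 73.7 ± 2.53 FPKM (SD, n = 3), and limma gave a log2 change of −0.54 ± 0.04 (standard error) with an adjusted p of 5.48e-05. In the control libraries, 93.0% of all tested genes had a lower mean than *Mcl1*.

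*Bcl2l1*, which encodes BCL-XL, had 40.0, 35.9 and 34.0 FPKM with control siRNA and 27.7, 26.9 and 25.9 FPKM with *Xbp1* siRNA. The conditions did not overlap, and the control libraries were the more spread. By limma the log2 change was −0.44 ± 0.07 (standard error) with an adjusted p of 0.0015. For this gene the FPKM values fell on whole multiples of a step, which gives reads: 238, 201 and 198 with control siRNA, and 169, 157 and 179 after silencing. Summed and divided by depth, these reads gave a ratio of 0.731, with an exact 95% interval of 0.649 to 0.823 that covers counting error only. On the log2 scale the counting error of the change was 0.09, above the limma error of 0.07.

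*Bcl2*, the founding member of the family, was weakly expressed. It had 2.63, 2.52 and 2.50 FPKM with control siRNA and 2.50, 2.60 and 2.68 FPKM with *Xbp1* siRNA, and the libraries of the conditions interleave. Its log2 fold change of 0.02 had a 95% interval of −0.24 to 0.29 (adjusted p = 0.892, limma), and the sign turned after quantile normalization, to −0.076. In these cells *Mcl1* and *Bcl2l1* together made up nearly all FPKM of the 3 pro-survival genes found, and *Bcl2* held 0.834% of the summed FPKM of the family in the controls, against 35.2% for *Mcl1* and 12.0% for *Bcl2l1*.

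The effectors differed from each other. *Bak1* had 70.4, 73.7 and 71.4 FPKM with control siRNA and 89.2, 90.5 and 93.7 FPKM with *Xbp1* siRNA, with no overlap. By limma the log2 change was 0.34 ± 0.04 (standard error) with an adjusted p of 0.00028. The reads behind it were 292, 287 and 290 against 379, 368 and 451. The spread between control libraries, a coefficient of variation of 2.29%, was below the 5.88% expected per library from counting alone, and the counting error of the change was 0.06 on the log2 scale, above the limma error of 0.04. The ratio of reads per depth was 1.27, with an exact 95% counting interval of 1.16 to 1.39.

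*Bax*, whose protein moves from the cytosol to mitochondria when activated, had 47.3, 42.3 and 38.9 FPKM with control siRNA and 45.4, 35.1 and 36.5 FPKM with *Xbp1* siRNA. *Xbp1* siRNA replicate 1 lay within the control range and the other two below it. The log2 fold change of −0.14 had a 95% interval of −0.40 to 0.12 (adjusted p = 0.353, limma). The reads were 265, 223 and 214 against 261, 193 and 238, and the variation among silenced libraries, 14.4%, was above the 6.62% expected from counting. *Bok*, an effector-like gene, was listed at 0 in 5 libraries and at 0.0863 FPKM in *Xbp1* siRNA replicate 1. It was below the mean of 0.1 FPKM required for the test.

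Within a library, *Bak1* exceeded *Bax* 1.49, 1.74 and 1.83 times in the controls and 1.96, 2.58 and 2.56 times after *Xbp1* silencing, and every silenced library was above every control library.

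Of the BH3-only genes, *Bcl2l11* fell, *Bad* rose and *Bid* did not pass. *Bcl2l11*, whose product BIM binds all pro-survival members and activates the effectors, had 5.19, 4.89 and 5.32 FPKM with control siRNA and 3.55, 3.34 and 3.78 FPKM with *Xbp1* siRNA. The conditions did not overlap. By limma the log2 change was −0.52 ± 0.10 (standard error) with an adjusted p of 0.00469.

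*Bad*, whose protein binds BCL-XL and BCL2 and is held in the cytosol by 14-3-3 proteins when phosphorylated, had 17.5, 16.4 and 15.8 FPKM with control siRNA and 21.6, 20.0 and 23.9 FPKM with *Xbp1* siRNA. Every silenced library was above every control library. By limma the log2 change was 0.39 ± 0.08 (standard error) with an adjusted p of 0.00553.

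*Bid*, which carries the death receptor signal to mitochondria after cleavage by caspase 8, had 22.4, 23.8 and 21.7 FPKM with control siRNA and 22.3, 26.8 and 22.8 FPKM with *Xbp1* siRNA. *Xbp1* siRNA replicate 2 was the highest of the 6, and the other two silenced libraries lay among the controls. Its log2 fold change of 0.08 had a 95% interval of −0.11 to 0.26 (adjusted p = 0.473, limma), and without that replicate it was −0.0037. *Bid* rested on 93 to 116 reads per library, and the counting error of its change, 0.12 on the log2 scale, was above the limma error of 0.08.

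For each of the 5 genes that passed, the exact permutation test (two-sided, 3 against 3 libraries) gave p = 0.10, the smallest this design allows. The log2 fold changes lay between −0.57 and −0.47 for *Mcl1*, −0.50 and −0.38 for *Bcl2l1*, −0.59 and −0.43 for *Bcl2l11*, 0.32 and 0.41 for *Bak1* and 0.33 and 0.46 for *Bad* under the 14 alternatives of the fit, and each of these genes passed under all 14.

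**Figure D2:**
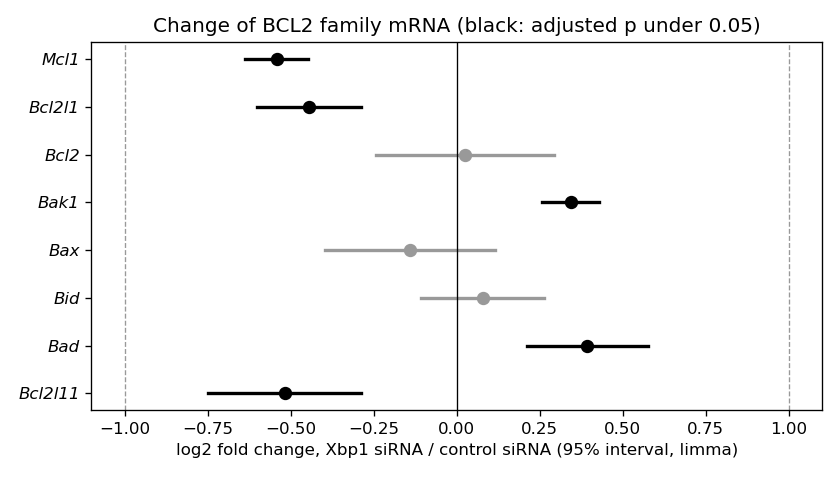
Log2 fold change of each family member after *Xbp1* silencing (dot) with its 95% interval from limma (line); black members passed an adjusted p of 0.05 and grey ones did not, and dashed lines mark the fold limit of 1. The 5 black intervals exclude 0 and none reaches a dashed line.

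**Figure D3:**
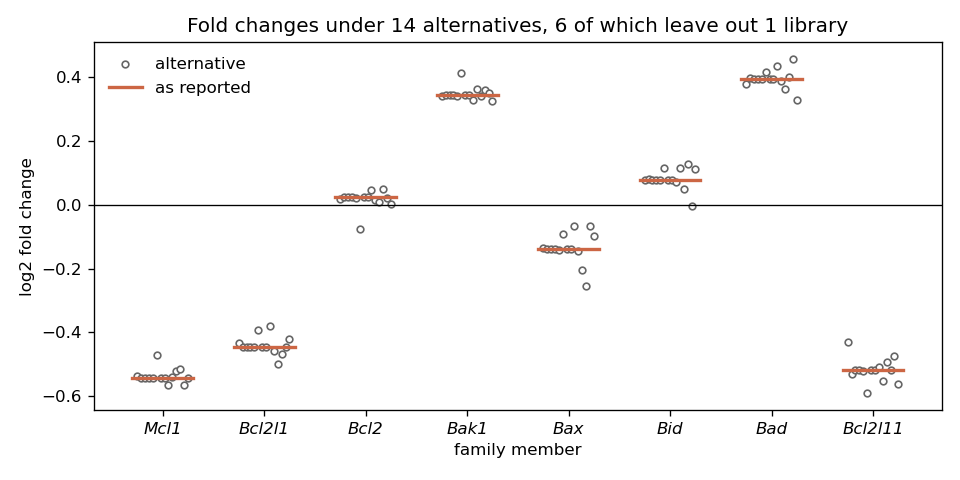
Log2 fold change of each member (*Xbp1* siRNA over control siRNA) as reported (orange line) and under 14 alternatives of the fit (open dots), 6 of which leave out 1 library. The dots of *Mcl1*, *Bcl2l1*, *Bcl2l11*, *Bak1* and *Bad* stay on one side of 0, those of *Bax* stay below it, and 1 dot each of *Bcl2* and *Bid* crosses it.

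The order of the levels changed with these shifts. In the control libraries it ran *Mcl1*, *Bak1*, *Bax*, *Bcl2l1*, *Bid*, *Bad*, *Bcl2l11*, *Bcl2* and *Bok*, and only the neighbours *Bax* and *Bcl2l1* had overlapping ranges. After *Xbp1* silencing *Bak1* stood first and *Mcl1* second, without overlap. *Bax* exceeded *Bcl2l1* within every library of both conditions, and after silencing their ranges no longer overlapped, while the means of *Bcl2l1*, *Bid* and *Bad* had drawn together at 26.8, 24.0 and 21.8 FPKM, with overlap of *Bid* with both of its neighbours.

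Ratios within a library do not depend on how libraries are scaled, and those given here were chosen after the levels had been seen. *Mcl1* was 1.47, 1.46 and 1.55 times *Bak1* in the control libraries and 0.797, 0.842 and 0.789 times *Bak1* in the silenced ones, a log2 difference of −0.89 (exact two-sided permutation p = 0.10, the smallest possible). MCL1 and BCL-XL are the pro-survival proteins that hold BAK. *Bcl2l1* was 0.568, 0.488 and 0.476 times *Bak1* in the controls and 0.311, 0.297 and 0.276 times in the silenced libraries. The ratio of *Mcl1* to *Bcl2l11* overlapped between conditions, at 20.0, 22.0 and 20.7 in the controls and 20.0, 22.8 and 19.5 after silencing. *Bad* went from 0.453 ± 0.0144 (SD, n = 3) to 0.815 ± 0.0956 (SD, n = 3) times *Bcl2l1*.

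Summed by class, the 3 pro-survival genes found (without *Bcl2l2*) held 146.5, 146.2 and 146.9 FPKM in the control libraries and 101.3, 105.6 and 102.5 FPKM in the silenced ones. The effectors held 118, 116 and 110.3 FPKM against 135, 126 and 130.2 FPKM, and the BH3-only genes 45.1, 45.1 and 42.8 FPKM against 47.4, 50.1 and 50.5 FPKM. The classes did not overlap between conditions in any of these sums. The summed FPKM of all entries also differed, at 646651 to 666267 in the control libraries and 593487 to 600986 in the silenced ones. None of the 14 alternatives of the fit scaled the libraries to that total, so its part in the class sums was not tested. The ratio of the pro-survival sum to that of all other members was 0.922 ± 0.0321 (SD, n = 3) with control siRNA and 0.575 ± 0.0237 (SD, n = 3) with *Xbp1* siRNA. These sums are dominated by *Mcl1* and *Bak1* and do not weigh the proteins by activity.

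**Figure D4:**
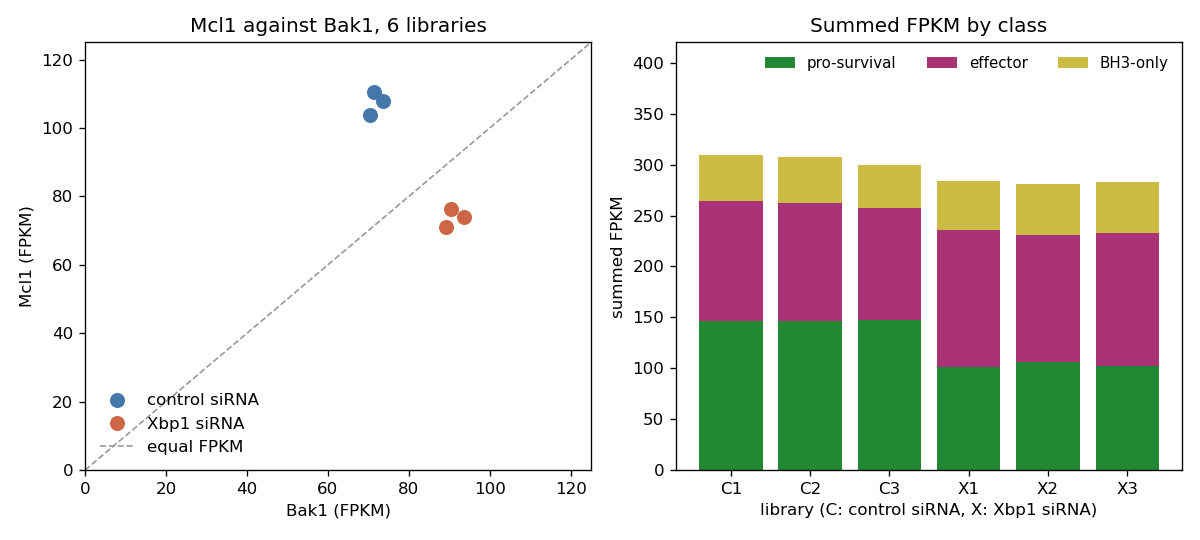
Left, *Mcl1* against *Bak1* in FPKM for the 6 libraries, with a dashed line at equal FPKM; right, summed FPKM of pro-survival, effector and BH3-only members in each library (C1 to C3 control siRNA, X1 to X3 *Xbp1* siRNA). The control libraries lie above the dashed line and the silenced ones below it, and the pro-survival sum is 146 to 147 FPKM in the controls and 101 to 106 FPKM after silencing.

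The list of other relatives of the family held 16 genes, of which 14 were found by symbol and 10 were tested. After *Xbp1* silencing 3 were higher, 3 lower and 4 did not pass, with a median log2 fold change of −0.08 against 0.01 for all genes. Over all genes tested, 20.2% were higher, 20.2% lower and 40.4% either. The BH3-only gene *Bmf* fell from 2.28 ± 0.0935 FPKM to 1.38 ± 0.149 FPKM (SD, n = 3), with a log2 change of −0.69 in limma (adjusted p = 0.00851), a direction it shared with *Bcl2l11*. *Bbc3*, the BH3-only gene of PUMA, had 9.57 ± 1.37 FPKM and 8.33 ± 0.580 FPKM (SD, n = 3) and did not pass (adjusted p = 0.241, limma). *Pmaip1*, which encodes NOXA, the BH3-only partner of MCL1, was listed at 0 in all 6 libraries, as was *Bcl2l10*. *Bcl2l14* and *Bcl2l15* were too weak to be tested, and *Bcl2a1* and *Hrk* were not matched by symbol and were not analysed here.

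*Bik*, a BH3-only gene whose product acts at the ER, was barely detected: its values correspond to 0, 1 and 0 reads with control siRNA, and to 4, 5 and 5 reads after silencing. The ratio per depth was 12.9 with an exact 95% counting interval of 1.96 to 546, and the gene passed the test (adjusted p = 0.0123, limma). It met the filter on weak genes only through the silenced libraries, so its call, 1 of the 3 higher ones, gives no support to a change of the list. At 0.324 FPKM after silencing it stayed far below *Bad* and *Bid*. *Bik* was the only gene of this list past both limits as higher, but its fitted log2 change depends on the pseudocount: it was 1.80 as reported, 4.01 with a pseudocount of 0.01 and 0.37 with a pseudocount of 1, where it was no longer past the fold limit.

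*Bnip2* was the only one past both limits as lower. It had 29.7, 29.7 and 33.6 FPKM with control siRNA and 7.74, 7.81 and 7.96 FPKM with *Xbp1* siRNA, and limma gave a log2 change of −1.97 ± 0.07 (standard error) with an adjusted p of 2.17e-06. BNIP2 was named for binding BCL2 but is known mainly as a scaffold of small GTPase signalling. *Bnipl*, its close relative, rose from 0.542 ± 0.0765 FPKM to 1.12 ± 0.186 FPKM (SD, n = 3, adjusted p = 0.0145, limma), and it did not pass without *Xbp1* siRNA replicate 2 or 3 (adjusted p = 0.0527 and 0.0568, limma). *Bcl2l12*, an atypical member at 144 ± 13.8 FPKM in the controls, fell to 88.0 ± 3.16 FPKM (SD, n = 3) (log2 change −0.71). The mitophagy receptor *Bnip3* rose by 0.27 on the log2 scale, while *Bnip3l* (0.13), *Bnip1* (−0.09) and *Bcl2l13* (−0.08) did not pass. *Bnip3l* passed as higher after quantile normalization (adjusted p = 0.0381, limma), and *Bnip1* as lower without *Xbp1* siRNA replicate 3 (adjusted p = 0.0348, limma).

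For the steps after membrane permeabilization 19 genes were listed, of which 16 were found on 17 rows and all 17 rows were tested. Of the rows, 4 were higher, 4 lower and 9 did not pass, with a median log2 fold change of 0.05. Over all genes 40.4% passed, a share close to that of these rows. *Casp6*, an executioner caspase, rose from 4.88 ± 1.17 FPKM to 9.37 ± 1.32 FPKM (SD, n = 3), by 0.95 on the log2 scale in limma (adjusted p = 0.00618). *Apaf1*, the scaffold of the apoptosome, rose from 2.25 ± 0.188 FPKM to 3.86 ± 0.492 FPKM (SD, n = 3), by 0.75 on the log2 scale in limma (adjusted p = 0.0039). *Htra2*, a protease released from mitochondria, rose by 0.12.

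Those lower were *Endog* (−0.33) and *Aifm1* (−0.15), whose products act on DNA once released from mitochondria, the caspase inhibitor *Xiap* (−0.31) and the outer membrane channel *Vdac1* (−0.17). *Vdac2*, the channel that brings BAK to mitochondria, had 153 ± 5.05 FPKM and 158 ± 0.616 FPKM (SD, n = 3) and did not pass (adjusted p = 0.308, limma), nor did *Vdac3* (0.07). *Birc5*, the gene of survivin, stands on a pair of rows. The abundant row had 153 ± 3.23 FPKM and 162 ± 4.04 FPKM (SD, n = 3) and did not pass (adjusted p = 0.0756, limma). The other row had 6.35, 0.695 and 1.05 FPKM with control siRNA and 0.820, 3.62 and 1.45 FPKM with *Xbp1* siRNA, an uneven spread within both conditions. After quantile normalization *Vdac2* (0.16) and the abundant row of *Birc5* (0.20) passed as higher. The 3 genes of this list not matched by symbol, *Casp9*, *Cycs* and *Birc3*, were not analysed here.

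The list of genes that regulate or bind family members held 15, all found and tested. Of these, 3 were higher, 6 lower and 6 did not pass, with a median log2 fold change of −0.05, beside 20.2% higher and 20.2% lower over all genes. Over the 3 lists, 10 rows were higher and 13 lower, and after quantile normalization 14 were higher and 11 lower. Over all genes the same scaling moved the counts from 2898 higher and 2904 lower to 3115 higher and 2653 lower. *Ddit3*, whose product CHOP activates transcription of *Bcl2l11* under ER stress, had 150.1, 155 and 166 FPKM with control siRNA and 104, 106 and 110.2 FPKM with *Xbp1* siRNA, and limma gave a log2 change of −0.55 ± 0.04 (standard error) with an adjusted p of 7.55e-05. *Foxo1* and *Foxo3* encode other activators of *Bcl2l11*. *Foxo1* rose by 0.40 on the log2 scale, and *Foxo3* (0.05) did not pass.

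*Ywhaz*, which encodes the 14-3-3 protein zeta that binds phosphorylated BAD, fell from 143 ± 5.80 FPKM to 81.0 ± 2.70 FPKM (SD, n = 3), with a log2 change of −0.81 in limma (adjusted p = 1.18e-05). *Mapk8*, the gene of the kinase JNK1, which phosphorylates BCL2 and BIM, fell from 19.1 ± 2.24 FPKM to 11.6 ± 0.404 FPKM (SD, n = 3) (log2 change −0.71). The study reports more phosphorylated JNK protein in CHO-T cells after *Xbp1* silencing, so this mRNA value does not give the activity of the kinase. Among genes that set the turnover of MCL1 protein, the ubiquitin ligase subunit *Fbxw7* fell by 0.70 on the log2 scale (adjusted p = 0.00194, limma). The ligase *Huwe1* (−0.05) and the deubiquitinase *Usp9x* (−0.16) did not pass (adjusted p = 0.358 and 0.0559, limma).

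At the ER, the 3 genes of the IP3 receptor, the calcium channel that BCL2 and BCL-XL bind, differed: *Itpr2* rose by 0.40, *Itpr3* was lower (−0.25), and *Itpr1* (0.18) did not pass. *Tmbim6*, which encodes BAX inhibitor 1, was abundant at 264 ± 5.38 FPKM and 257 ± 9.27 FPKM (SD, n = 3) and did not pass (log2 fold change −0.04, adjusted p = 0.468, limma). After quantile normalization it had 0.13 on the log2 scale and passed as higher (adjusted p = 0.0088, limma). *Ern1*, the gene of IRE1α, was lower by a small amount, −0.14 on the log2 scale (adjusted p = 0.0356, limma). *Becn1*, an autophagy gene with a BH3 domain that BCL2 binds, rose by 0.21 on the log2 scale (adjusted p = 0.0156, limma) and missed the threshold without *Xbp1* siRNA replicate 3 (adjusted p = 0.0519) or when the limma error was fitted without an intensity trend (adjusted p = 0.0504).

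**Figure D5:**
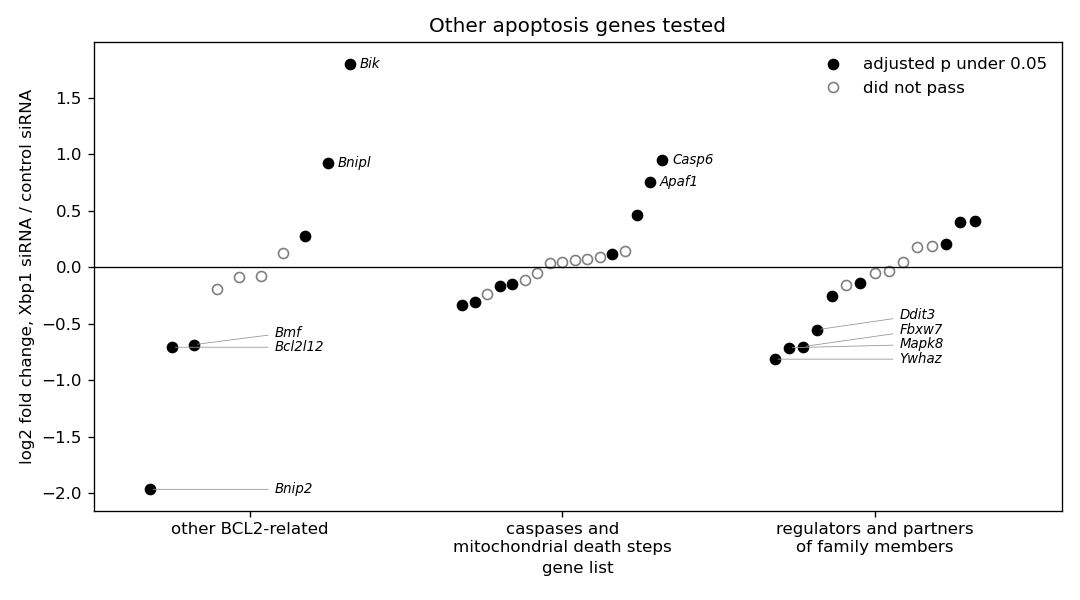
Log2 fold change (*Xbp1* siRNA over control siRNA) of the tested genes in 3 lists of other apoptosis genes, sorted within each list; black dots passed an adjusted p of 0.05, open dots did not, and names stand beside dots that passed and lie at least 0.5 from 0. In each list dots lie on both sides of 0, and *Bik* and *Bnip2* are the farthest from it.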

How the data were processed

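Stranded mRNA libraries were sequenced, and the authors deposited 1 FPKM table per library. The submitters' processing notes name HISAT2 2.1.0 and Cuffdiff 2.2.1. The genome build and annotation are not given in the sources used here, so no coordinates are printed. FPKM values are not counts, so the count model of the study's methods was not used. The log2(FPKM + 0.1) values of genes with a mean of at least 0.1 FPKM were fitted with limma 3.58.1 (R 4.3.3, lmFit and eBayes with trend, all 6 libraries), with Benjamini-Hochberg adjustment. Fold changes are on this scale, which understates those of weak genes. The fit was tested on simulated data.

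Total depth is unknown. The relative depth of the libraries was taken from the ratio that most often occurred between weak values (under 1 FPKM), and reads were recovered where all 6 values of a gene, divided by depth, were whole multiples of 1 step within 0.005 reads, a tolerance set after values had been seen. This succeeded for *Bcl2l1*, *Bax*, *Bak1* and *Bid* and for 12 of 46 rows of the other lists. Reads behind the other members are unknown. Intervals on reads cover counting error only.

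The members, lists and tests were chosen with earlier results of these data known. Named list genes are those that passed an adjusted p of 0.05 and changed by at least 0.5 on the log2 scale in either direction, and up to 4 more per list with the highest mean FPKM. Others named were chosen after their values were seen. One gene counted in the lists is not reported here by name. Figures and ratios used Python 3.11.15, pandas 2.3.3, scipy 1.17.1 and matplotlib 3.10.9. Replicate numbers were not taken as pairs (deviations of same-numbered libraries correlated across genes with r of −0.029, −0.027 and −0.012).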

Additional observations from a re-analysis of the deposited data

How the results depend on the processing

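Of 112 log2 fold changes recomputed for the 8 family members tested, 110 kept their direction and their side of an adjusted p of 0.05 (limma). The exceptions were *Bcl2* after quantile normalization (−0.076) and *Bid* without *Xbp1* siRNA replicate 2 (−0.0037), neither of which passed. Among 24 other named genes, 321 of 334 values did so. *Tmbim6* and *Huwe1* turned to 0.13 and 0.014 after quantile normalization. In all 14 alternatives 2 members were higher and 3 lower, including the fit with the replicate block, which gave 2767 genes higher and 2875 lower over all genes. *Usp9x* passed under 3 alternatives, the replicate block among them (adjusted p = 0.0306, limma).

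Past both limits, a pseudocount of 1 left 114 genes higher and 205 lower, and a filter at a mean of 1 FPKM left 242 higher, against 386 and 359 as reported. Of the apoptosis lists, 1 gene was higher as reported, 0 with a pseudocount of 1 or the filter at 1 FPKM (which removes *Bik*), 2 with a pseudocount of 0.01, and 1 to 2 when 1 library was left out. By limma, 10 list genes passed an adjusted p of 0.05 as higher and 13 as lower without the fold limit (14 and 11 after quantile normalization, and 7 to 11 higher and 11 to 13 lower when 1 library was left out), and 26 of 42 had an unadjusted p under 0.05, beside 7017 of all 14361 genes. The ratio of class sums was not recomputed where a setting cannot change it (filters, scaling factors, the error model). Reads behind *Mcl1*, *Bcl2*, *Bad* and *Bcl2l11* are unknown, which limits how their errors can be judged.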
